A study of Homo sapiens with 4 samples.

Results

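The transcripts of 10 annexin genes were followed in PK-1, an established human line of well-differentiated pancreatic ductal adenocarcinoma (PDAC) cells. The members were taken by gene symbol (ANXA1, ANXA2, ANXA3, ANXA4, ANXA5, ANXA7, ANXA8L1, ANXA9, ANXA10 and ANXA11) from tables of 53826 entities, and each symbol was found as 1 row. The family was chosen by the measured log2 difference of ANXA10 in the stable model, which passed 2-fold, so the values of that comparison are given as a description. The study asked whether forced expression of SPRR1A, a precursor of the cornified envelope of squamous epithelium, alters gene expression in PK-1 cells. In the stable model, PK-1 cells were infected with a pMXs retrovirus carrying SPRR1A with a FLAG tag or, as the control, the red fluorescent protein DsRed. In the transient model, PK-1 cells were transfected with a pCAG plasmid carrying the same tagged SPRR1A or green fluorescent protein (GFP), and RNA was isolated 48 h later. The paper's methods describe no cloning or sorting of the cells after either procedure, so whether the stable cells are a clone or a mixed population is not known. There was 1 library for each of the 4 conditions. Differences therefore have no replicate check, and p-values are not given.

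Annexins are proteins that bind acidic membrane phospholipids in a calcium-dependent way through a conserved core of repeated domains. Their N-terminal tails differ and carry the binding sites for partners such as the S100 proteins. In epithelial and carcinoma cells they are known for roles in vesicle traffic, repair of the plasma membrane and the organisation of the cell surface.

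The deposited value is the log2 of the TPM, in which the reads of a gene are divided by transcript length and scaled to a fixed library total, so levels can be set side by side between genes. No value lies below 0, and 0 stands for a TPM of 1 or less. All 10 members were above that floor in all 4 libraries. An entity counted as past 2-fold when its log2 difference was above 1 or below -1. SPRR1A itself, the check of the labels, stood at 0.75 log2 TPM with stable DsRed against 10.93 with stable SPRR1A, and at 3.56 with transient GFP against 16.60 with transient SPRR1A. Of 7 markers of ductal epithelium, 6 reached a TPM of at least 5, with MUC1 as the exception, and the list summed to between 18255 and 26470 TPM. All 4 endothelial markers and 5 of 6 fibroblast markers were listed at 0, COL1A1 being the only fibroblast marker above the floor. Of 5 leukocyte markers, CD68 and LYZ were above the floor, with a summed 20.3 to 36.5 TPM, and PTPRC was listed at 0. Of 4 acinar markers only PRSS1 was above it, and the list summed to between 1.56 and 3.62 TPM. Entities above the floor numbered between 12964 and 13558 per library, and the depth in reads is unknown.

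The family spanned a wide range of levels. ANXA2, which with its partner S100A10 forms a complex at the cell surface that binds plasminogen, was the most abundant member. Its log2 TPM was 11.96 in DsRed and 11.97 in SPRR1A cells of the stable model, and 11.81 in GFP and 11.66 in SPRR1A cells of the transient model. ANXA10, an annexin known as a marker of gastric epithelium and listed among the classical PDAC signature genes, was the lowest. Its log2 TPM was 1.72 in DsRed and 2.78 in SPRR1A cells of the stable model, and 3.29 in GFP and 3.26 in SPRR1A cells of the transient model. The stable DsRed library was therefore the low one for ANXA10, and the 3 others lay between 2.78 and 3.29.

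**Figure D1:**
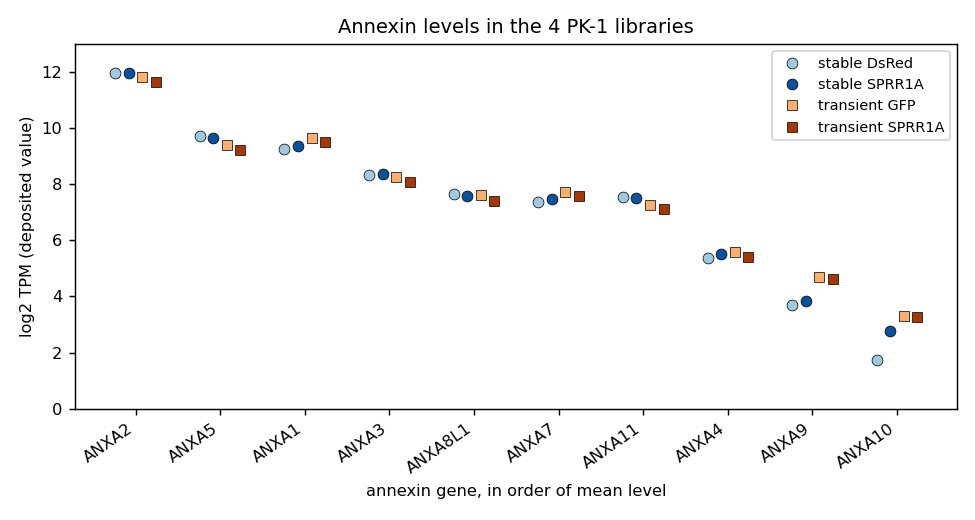
Log2 TPM of the 10 annexin genes, ordered by mean level, with 1 point for each library (circles for the stable and squares for the transient model). ANXA2 lies between 11.66 and 11.97 in the 4 libraries, whereas ANXA10 lies between 1.72 and 3.29 with stable DsRed lowest.

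The order of the mean levels was ANXA2 (11.85), ANXA5 (9.49), ANXA1 (9.44), ANXA3 (8.26), ANXA8L1 (7.57), ANXA7 (7.54), ANXA11 (7.37), ANXA4 (5.46), ANXA9 (4.21) and ANXA10 (2.76). The ranges over the 4 libraries overlapped between the neighbours ANXA5 and ANXA1, between ANXA8L1 and ANXA7, and between ANXA7 and ANXA11. The other 6 neighbouring pairs did not overlap. Of these, ANXA9 and ANXA10 came closest, with 0.40 between the lowest value of ANXA9 and the highest of ANXA10, followed by ANXA3 and ANXA8L1 with 0.43.

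The 10 members together held 0.637% of the TPM total with stable DsRed, 0.642% with stable SPRR1A, 0.601% with transient GFP and 0.541% with transient SPRR1A. SPRR1A itself held 9.90% of the total with transient SPRR1A and 0.00118% with transient GFP, so these percentages do not have a like base. With SPRR1A left out of the total, the median log2 difference of the members between the transient libraries was -0.0007. ANXA2 made up 62.7% of that annexin sum with stable DsRed and 62.6% with stable SPRR1A, against 59.6% in each of the transient libraries. ANXA5, which binds phosphatidylserine and is used as a probe for dying cells, made up 13.2% and 12.4% in the stable model, control first, and 11.2% and 11.1% in the transient model. ANXA1, a glucocorticoid-induced inhibitor of phospholipase A2 and a ligand of formyl peptide receptors, made up 9.52% and 10.2% in the stable model, control first, and 13.4% and 13.6% in the transient model. ANXA5 thus held a larger share than ANXA1 in both stable libraries and a smaller share in both transient libraries. Unlike the percentages of the TPM total, these shares of the annexin sum do not move with the scaling of that total.

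Some members have near-identical copies elsewhere in the genome, so their reads could have been divided. ANXA8L1, for which RefSeq lists the synonym ANXA8L2 and a basal-like PDAC signature gene, lies on chromosome 10 of GRCh38 from 46375776 to 46391778, and its copy ANXA8 lies on the same chromosome. Of the 1809 windows of 100 nt along its canonical GENCODE 44 transcript, one starting at each base, 1315 (72.7%) also occurred in a transcript of ANXA8. Some of these also occurred in the GENCODE gene ENSG00000279458. The exons of ANXA8L1 overlap those of that gene and of ENSG00000285402 on the same strand. ANXA8, which is not among the 10 members, stood at 8.32 and 8.19 log2 TPM in DsRed and SPRR1A cells of the stable model and at 8.01 and 7.86 in GFP and SPRR1A cells of the transient model, above ANXA8L1 in each library. The gap between ANXA8 and ANXA8L1 ran from 0.38 to 0.66. The values of both genes are uncertain for this reason, and how the alignment treated reads that match several genes is not given in the sources used here.

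ANXA2, on chromosome 15 from 60347151 to 60397986, has the processed pseudogene ANXA2P2 on chromosome 9 from 33624225 to 33625534. Of 1455 windows along the canonical ANXA2 transcript, 287 (19.7%) occurred in ANXA2P2 as well, and these were 31.2% of the 921 windows of the pseudogene. The log2 TPM of ANXA2P2 was 7.87 and 7.92 in the stable model, control first, and 7.79 and 7.61 in the transient model. It lay below ANXA2 by a gap of 4.02 to 4.10 in every library, a gap that varied by 0.08. ANXA2P1 lay between 0.76 and 1.12 and shared no window with ANXA2, and ANXA2P3 was listed at 0 throughout. The 8 other members had no window of 100 nt in common with a transcript of another gene, and that includes ANXA9 and ANXA10.

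The remaining annexin entities were low. ANXA6 and ANXA13 were listed at 0 in all 4 libraries. ANXA2R, named as a receptor for ANXA2, lay between 0.42 and 0.87.

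Stable SPRR1A cells were compared with stable DsRed cells to ask whether lasting SPRR1A expression moves the family. ANXA10 was 2.08 times higher, with a TPM of 6.87 against 3.30 and a log2 difference of 1.06, and was the only member past 2-fold. The other 9 members lay between -0.08 for ANXA5 and 0.16 for ANXA4 and ANXA9. The step from the member past the threshold to the next member under it was thus from 1.06 to 0.16, and the first value chose the family. No member was lower by 2-fold. The paper states that the classical and basal-like signature genes, among which ANXA10 is listed, did not change with stable or transient SPRR1A overexpression. Its main text gives no threshold for that statement.

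Across the 13310 entities above the floor in either library, 0.526% were past 2-fold higher and 0.421% were past 2-fold lower. Among protein-coding entities the higher share was 0.204%. Because the family was chosen for ANXA10 in this comparison, nothing is read from the count of 1 member in 10. The call depended on the scale: the log2 difference of ANXA10 was 0.87 under log2(TPM + 1) and 0.999 after subtraction of the median difference of well expressed entities, both under the threshold. Among the 793 other entities with a mean level within 0.25 of that of ANXA10 in these libraries, the median difference was 0.11 with an SD of 0.30 between entities, and 8 were past 2-fold.

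The 9 other members varied little between the stable libraries. Calcium-dependent fusion of granule membranes is the property for which ANXA7 (synexin) was first described, and it stood at 7.36 log2 TPM with DsRed and 7.48 with SPRR1A. ANXA4, an epithelial annexin also found on pancreatic zymogen granules, was at 5.36 and 5.52. ANXA1 was at 9.24 and 9.35. ANXA11, which binds S100A6, was at 7.53 and 7.52, and ANXA3 at 8.34 and 8.36. All of these steps were within 0.16 on the log2 scale, and after centring ANXA2 and ANXA3 were on the other side of 0, at -0.05 and -0.04. The median over the 10 members was 0.06, and the median over 9835 well expressed entities (5 TPM or more in each of the libraries compared) was also 0.06. All 9 members that reached this level lay inside the central 95% of those entities, which ran from -0.27 to 0.41. The share of a member in the annexin sum shifted most for ANXA5, which was lower by 0.81 percentage points in stable SPRR1A cells.

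**Figure D2:**
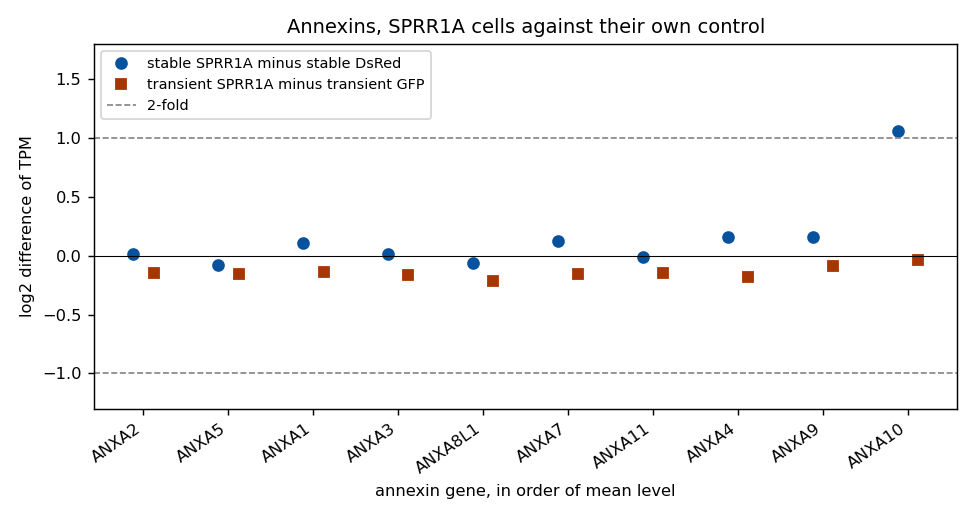
Log2 difference of TPM between SPRR1A cells and their own control for each annexin gene (circles stable, squares transient), with dashed lines at 2-fold. ANXA10 stands at 1.06 in the stable model and at -0.03 in the transient model (0.12 with SPRR1A left out of the total), and the other stable values lie between -0.08 and 0.16.

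In the transient model, none of the 10 members was past 2-fold. All 10 were slightly lower in SPRR1A than in GFP cells on the deposited scale, a direction that turned for 5 of them once SPRR1A was taken out of the total and for 9 after centring. The log2 differences ran from -0.22 for ANXA8L1 to -0.03 for ANXA10, with a median of -0.15. ANXA10 was at 9.57 TPM in SPRR1A and 9.79 TPM in GFP cells, a ratio of 0.977. ANXA2 was at 3228 and 3581 TPM and ANXA1 at 734 and 806 TPM. ANXA8L1, with the lowest difference, was at 7.41 log2 TPM in SPRR1A and 7.63 in GFP cells, against 7.59 and 7.66 in the stable SPRR1A and DsRed libraries. Its reads could have been divided with ANXA8, and with ANXA8 added the difference was -0.18. Among members of intermediate level, ANXA3 was at 8.09 in SPRR1A and 8.25 in GFP cells and ANXA4 at 5.40 and 5.58.

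Most other entities shifted likewise. Of the 10154 well expressed entities, 94.1% were lower in transient SPRR1A cells, with a median of -0.18. Of the 10 members, 9 lay above that median, but the shift varied with level. Entities of like mean level had a median of -0.12 for ANXA2 and -0.22 for ANXA10. Against the median at their own level, ANXA2, ANXA3, ANXA5 and ANXA8L1 were lower. ANXA1, ANXA4, ANXA7, ANXA9, ANXA10 and ANXA11 were above it. In transient SPRR1A cells, SPRR1A alone accounted for 9.90% of all TPM. Once SPRR1A was removed from the total, the median of the members was -0.0007, and ANXA2 differed by 0.0009. After centring on the median of well expressed entities, which takes no account of level, 9 members were above 0 and ANXA8L1 was at -0.04. All 10 members lay inside the central 95% of well expressed entities, from -0.43 to 0.07. Past 2-fold were 0.19% higher and 0.7% lower of the 13717 entities above the floor. The make-up of the annexin sum differed by at most 0.149 percentage points, for ANXA8L1.

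The difference of ANXA10 between SPRR1A and control cells was thus 1.06 with the retrovirus and -0.03 with the plasmid. With SPRR1A left out of the total these values were 1.06 and 0.12, and after centring 0.999 and 0.15, so that the direction in the transient model turned with the scaling. Whether these differ could not be tested with 1 library per condition.

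The levels were also set side by side between the models. These comparisons share their libraries with those above. Vector, transfection and culture history differed in both, and the fluorescent protein differed between the controls only. The amount of SPRR1A differed as well, at 99031 TPM with its plasmid against 1957 TPM with its retrovirus. In the controls SPRR1A was at 11.8 TPM with GFP against 1.68 TPM with DsRed. All these factors cannot be told apart. Transient GFP cells had higher ANXA10 and ANXA9 than stable DsRed cells. ANXA10 was 2.97 times higher (log2 difference 1.57). ANXA9, an annexin whose calcium-binding sites differ from those of the other members, was 2.02 times higher (1.01). Its log2 TPM was 3.69 in DsRed and 3.85 in SPRR1A cells of the stable model, and 4.70 in GFP and 4.61 in SPRR1A cells of the transient model. Both transient libraries were therefore above both stable ones for ANXA9, and the same was true of ANXA10.

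Of the 13761 entities above the floor, 6.86% were past 2-fold higher in transient GFP cells and 0.661% lower, and 3.21% of the well expressed ones were higher. The count of 2 higher members in 10 and 0 lower members is read against these shares, and the stable DsRed library, against which ANXA10 was chosen, enters here too. ANXA9 was no longer past 2-fold under log2(TPM + 1), with 0.96, or after centring, with 0.89. ANXA10 remained past it in both, with 1.45 after centring.

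**Figure D3:**
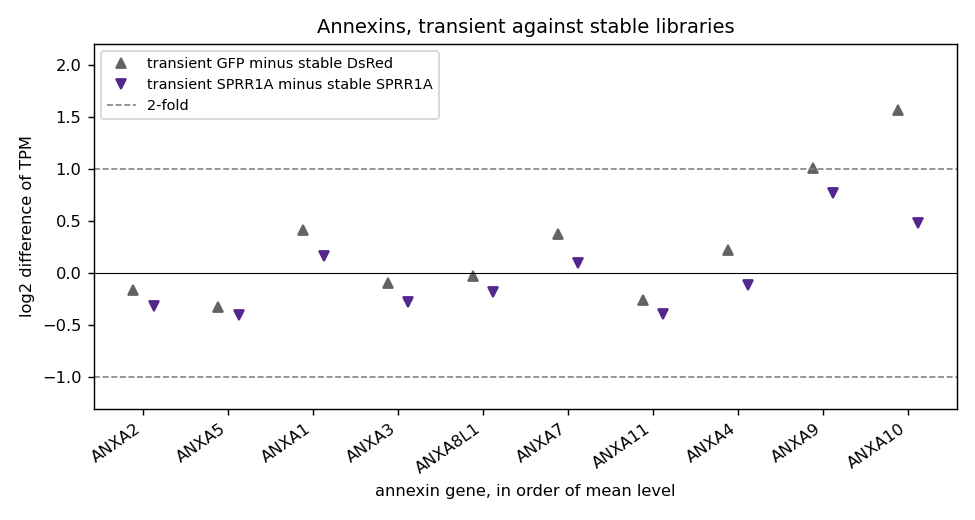
Log2 difference of TPM between the transient and stable models for each annexin gene (upward triangles for the controls, downward triangles for the SPRR1A libraries), with dashed lines at 2-fold. ANXA10 and ANXA9 pass 2-fold between the controls, with 1.57 and 1.01, and no member does between the SPRR1A libraries.

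Among the other members, ANXA1 (log2 difference 0.41), ANXA7 (0.38) and ANXA4 (0.22) were higher in transient GFP than in stable DsRed cells. ANXA5 (-0.32), ANXA11 (-0.26), ANXA2 (-0.16), ANXA3 (-0.09) and ANXA8L1 (-0.03) were lower. In log2 TPM, ANXA5 was at 9.71 and 9.63 in the stable model, control first, and at 9.39 and 9.24 in the transient model, and ANXA11 at 7.53 and 7.52 against 7.28 and 7.13. Both genes were therefore lower in both transient libraries. ANXA7 went the other way, at 7.36 and 7.48 against 7.74 and 7.58, as did ANXA1, at 9.24 and 9.35 against 9.66 and 9.52. The median was 0.10 over the members and 0.12 over 9810 well expressed entities, so that after centring the members were at -0.03. All 9 members that were well expressed in both controls lay inside the central 95% of those entities, from -0.54 to 1.08, and ANXA9 was close to its upper end.

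Between the SPRR1A libraries no member was past 2-fold, against 2.61% of the 13549 entities above the floor higher and 0.974% lower in transient SPRR1A cells. ANXA9 was 1.70 times (log2 difference 0.77) and ANXA10 1.39 times (0.48) higher in transient SPRR1A cells. ANXA1 was 0.17 and ANXA7 0.10 higher. The 6 others were lower, down to -0.40 for ANXA5 and ANXA11. These values depend on the scaling, since SPRR1A held 9.90% of all TPM in transient SPRR1A cells. With SPRR1A left out of the total, the median of the members was -0.0015. ANXA5 and ANXA11 were then at -0.25, ANXA4 at 0.03, ANXA10 at 0.63 and ANXA9 at 0.92. On the deposited scale, ANXA9 was the only member outside the central 95% of well expressed entities. That range ran from -0.65 to 0.74 around a median of -0.11, against -0.15 for the members. ANXA4 differed in direction between these comparisons, with -0.11 here against 0.22 between the controls, and it was at 0.0005 here after centring.

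ANXA1 gained the largest share of the annexin sum in the transient libraries, by 3.89 percentage points between the controls and by 3.38 between the SPRR1A libraries.

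The spread over all 4 libraries separated ANXA9 and ANXA10 from the other members. The highest minus the lowest log2 TPM was 1.57 for ANXA10 and 1.01 for ANXA9, and between 0.22 for ANXA4 and 0.48 for ANXA5 for the other 8. Entities of lower level also vary more, so each range was set beside that of entities with a mean level within 0.25. For ANXA10 these 917 entities had a median range of 0.51 and a 90th percentile of 1.14. For ANXA9, 1157 entities had 0.40 and 0.82. The other 8 members stayed below the 90th percentile of their own level, and ANXA3, ANXA4 and ANXA8L1 were below its median. The values of ANXA10 chose the family and are a description.

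**Figure D4:**
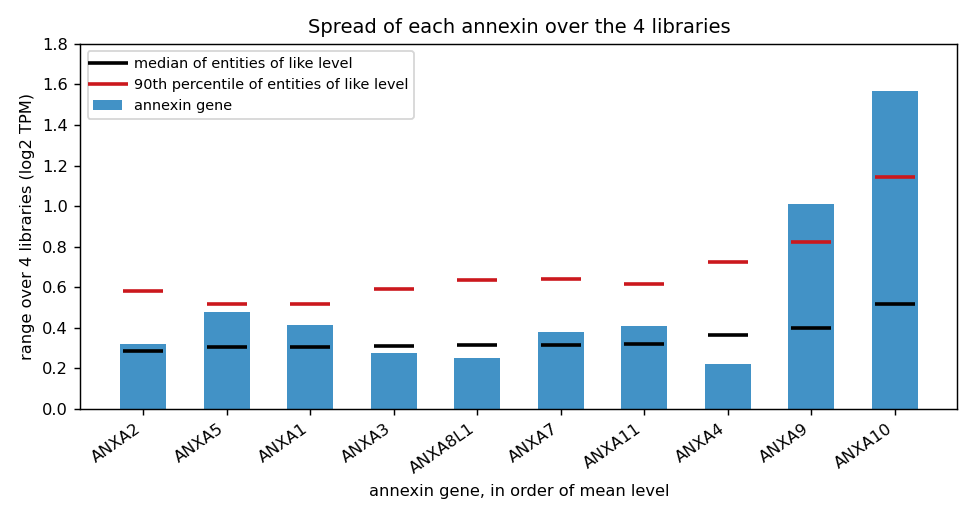
Range over the 4 libraries (highest minus lowest log2 TPM, bars) of each annexin gene, with black and red marks for the median and the 90th percentile of entities of like mean level. The bars of ANXA10 (1.57) and ANXA9 (1.01) pass the red mark and those of the other 8 genes do not.

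The entities closest to ANXA10 in pattern were sought among 10673 others above the floor in all 4 libraries with a mean log2 TPM of at least 2, by the root mean square difference after each was centred on its own mean over the 4 libraries. They were ABHD11-AS1 (0.11), FAM157B (0.12), NUDT11 (0.14), NAA16 (0.16) and LMBRD2 (0.17). NUDT11, a diphosphoinositol polyphosphate phosphohydrolase, was at 1.69 and 2.74 log2 TPM in the stable model, control first, and at 3.16 and 2.87 in the transient model. All 5 were lowest in stable DsRed cells, as the search favours, and low, with mean levels between 2.02 and 2.71. The likeness rests on 4 libraries.

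**Figure D5:**
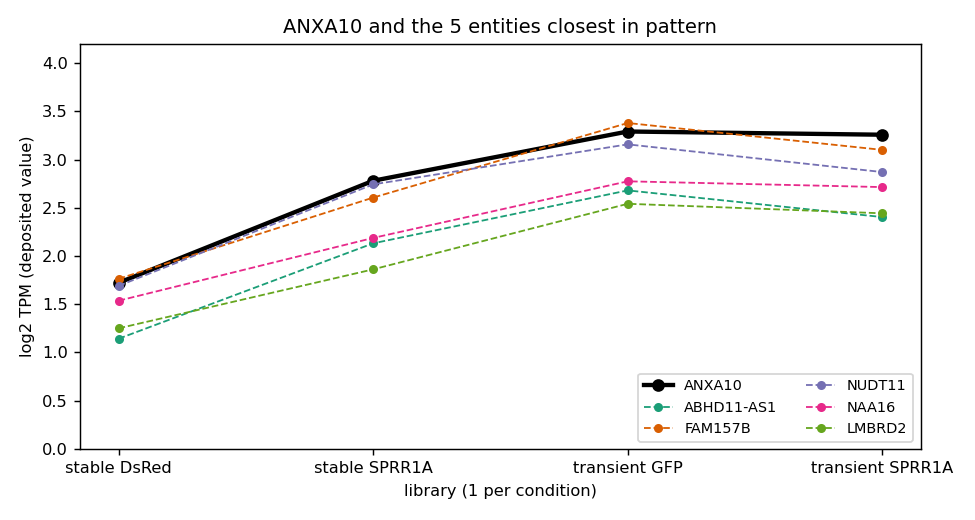
Log2 TPM of ANXA10 (black) and of the 5 entities closest to it in pattern (dashed) in the 4 libraries, 1 library per condition. ANXA10 goes from 1.72 in stable DsRed to 3.29 in transient GFP cells, and the others follow the same order of low and high libraries by selection.

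The sequence before the start of the genes was examined for the members whose levels differed most between the libraries. All 10 members matched by symbol in the RefSeq promoter table of GRCh38.p14, which holds 250 bases before and 50 after each start. The 250 bases before the start are printed for ANXA10 and ANXA9, the genes with the widest ranges, and for ANXA1 for comparison, since it resembles ANXA10 in composition at a far higher level. The capitals mark the letters TATAAA on either strand and each CG. The sequences lie on the plus strand at chr4:168092287-168092536, chr1:150982042-150982291 and chr9:73151615-73151864 respectively.
ANXA10: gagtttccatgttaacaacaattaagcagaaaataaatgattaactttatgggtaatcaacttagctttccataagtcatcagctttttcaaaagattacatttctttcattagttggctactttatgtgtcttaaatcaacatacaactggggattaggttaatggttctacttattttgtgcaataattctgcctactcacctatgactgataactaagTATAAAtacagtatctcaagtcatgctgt
ANXA9: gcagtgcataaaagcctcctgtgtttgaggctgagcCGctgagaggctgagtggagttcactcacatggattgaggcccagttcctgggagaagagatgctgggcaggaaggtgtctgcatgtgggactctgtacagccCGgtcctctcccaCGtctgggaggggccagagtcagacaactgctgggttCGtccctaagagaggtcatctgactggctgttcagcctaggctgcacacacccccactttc
ANXA1: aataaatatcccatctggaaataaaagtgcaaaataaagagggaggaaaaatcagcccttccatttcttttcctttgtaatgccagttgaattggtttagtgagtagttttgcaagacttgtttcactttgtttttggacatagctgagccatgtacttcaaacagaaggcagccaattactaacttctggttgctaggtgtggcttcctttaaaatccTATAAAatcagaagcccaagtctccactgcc

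ANXA10 and ANXA1 hold 0 CG in the whole window of 300 bases, a feature of 4.16% of the 27305 promoters in the table, and their GC contents are 32.7% and 37.7%. ANXA9 holds 5 CG at a GC content of 59%, and 34.4% of all promoters hold 5 or fewer. The other 7 members hold between 10 for ANXA8L1 and 44 for ANXA4, with a median over all promoters of 14. The letters TATAAA begin 29 bases before the start in ANXA10, 31 bases before it in ANXA1 and in ANXA2, and 61 bases before it in ANXA11, and 12% of all promoters hold them on either strand. ANXA9 and the 5 others lack these letters in this window. The GC-rich letters GGGCGG occur in ANXA2, ANXA4, ANXA5, ANXA7 and ANXA8L1, and in 44.6% of all promoters. A window without CG and with TATAAA is common to ANXA10, the most variable member, and ANXA1, with a range of 0.41. ANXA1 was printed for that likeness, so the likeness is not a result. Whether composition goes with range was not tested, and a match of letters is not a site.

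The genes lie on 6 chromosomes. ANXA10, with 12 exons, is on chromosome 4 from 168092537 to 168187736, as are ANXA3 (78551770 to 78610447) and ANXA5 (121667946 to 121696980). ANXA7 (73375101 to 73414058) and ANXA11 (80150889 to 80205808) are on chromosome 10 with ANXA8L1. ANXA1 is on chromosome 9 from 73151865 to 73170393, ANXA4 on chromosome 2 from 69643808 to 69827112 and ANXA9 on chromosome 1 from 150977306 to 150995634. The start used for ANXA9 in the promoter table, which is also that of its canonical GENCODE transcript, lies within this span.

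Proteins that bind annexins or act with them were described from a list of 20 genes, of which 14 were above the floor. In the stable model 0 were past 2-fold and the median of the 14 was 0.05. In the transient model 0 were past 2-fold and all 14 were lower, with a median of -0.18, the same as over all well expressed entities. S100A10, the partner of ANXA2, was at 10.28 and 10.14 log2 TPM in the stable model, control first, and at 9.94 and 9.68 in the transient model. Like ANXA2 it was lower in both transient libraries than in both stable ones. S100A11, a partner of ANXA1, lay between 11.36 and 11.57, and S100A6 between 10.34 and 10.51.

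The formyl peptide receptors FPR1, FPR2 and FPR3, through which ANXA1 acts on leukocytes, were listed at 0 in all 4 libraries, as were S100A8, PLG and TRIM72. PLAT, the tissue plasminogen activator, lay between 6.67 and 7.06. PLA2G4A, the cytosolic phospholipase A2, lay between 3.17 and 3.48. Between the models 1 partner was past 2-fold in each comparison, against 6.86% of entities higher between the controls and 0.974% lower between the SPRR1A libraries. VPS4B, an ATPase that disassembles ESCRT filaments, was 1.04 higher on the log2 scale in transient GFP than in stable DsRed cells, at 5.55 against 4.51, and was under the threshold after centring, with 0.92. S100A4, a calcium-binding protein of motile cells, had a log2 difference of -1.18 in transient SPRR1A against stable SPRR1A cells, at 3.06 against 4.24, and -1.07 after centring.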

How the data were processed

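PK-1 mRNA was sequenced as 4 libraries, 1 for each condition named in the labels. Paired-end reads of stranded libraries were aligned by the authors with Strand NGS (default settings, hg38 transcriptome). The authors deposited the log2 of the resulting TPM, with a floor at 0. Which version and annotation were used, how long the reads were and how multi-mapping reads were treated is not given in the sources used here. Depth in reads is unknown, so no counting interval is given.

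Log2 differences were taken from the deposited values over all 53826 entities. Entities were called past 2-fold above 1 or below -1, as in the study, and with 1 library per condition no test was possible. Named genes were the 10 members, SPRR1A, other entities whose symbol starts with ANXA, the members of the partner list past 2-fold with S100A10 and S100A11, and the 5 closest patterns to ANXA10. The other partners, the markers and the neighbours in level were described after their values were seen. The members and lists were chosen with earlier results of these data known. Windows of 100 nt were matched on the GENCODE 44 transcripts, and positions and promoters came from RefSeq (GRCh38.p14). A protein comparison was not made here. The calculation was tested on simulated data with little noise and with shifts well past the threshold in entities above the level of ANXA10. That check does not bear on calls near the threshold. Python 3.11.15, numpy 2.4.6, pandas 2.3.3 and matplotlib 3.10.9 were used.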

Additional observations from a re-analysis of the deposited data

Results flagged for a closer look

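ANXA10 differed between SPRR1A and control cells by 1.06 on the log2 scale in the stable model and by -0.03 in the transient model, a gap of 1.09 with opposite signs on the deposited scale. The opposite signs were lost once SPRR1A was taken out of the total, where the values were 1.06 and 0.12, and after centring, where they were 0.999 and 0.15. The gap was then 0.94 and 0.85. The family was chosen by the stable value, which makes up most of the gap. With 1 library per condition, the gap was not tested. The stable DsRed library, at 1.72, was the lowest of the 4.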

How the results depend on the processing

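No paired analysis was possible because there is only 1 library for each condition. Leaving out a library leaves no comparison. Of 246 member values recomputed under alternative settings, 242 kept their side of the 2-fold threshold, 4 lost it and none past 2-fold changed direction. Most of this agreement was fixed in advance. The settings that only filter by the floor or by 5 TPM leave each difference as deposited, and most values lay far under 2-fold. The only calls that could be lost were ANXA10 in the stable model, and ANXA10 and ANXA9 between the controls. The sign changed for 18 values under 2-fold: in the transient model for 5 members with SPRR1A left out of the total and for 9 after centring, in the stable model for 2 after centring, and between the SPRR1A libraries for ANXA4 under both. The 4 values that lost it were ANXA10 in the stable model, with 0.87 under log2(TPM + 1) and 0.999 after centring, and ANXA9 between the controls, with 0.96 and 0.89. The count of higher members was then 0 in place of 1 in the stable model, and 1 in place of 2 between the controls. A minimum of 5 TPM in each library removed ANXA10 from both comparisons by construction and gave the same counts, 0 and 1. The scale log2(TPM + 0.1) and a TPM total without SPRR1A changed no count. With ANXA8 added, the log2 difference of ANXA8L1 was -0.10 (stable), -0.18 (transient) and -0.20 (between the controls), and with its pseudogenes added ANXA2 differed by 0.01, -0.15 and -0.15. Counting the background over protein-coding entities alone was chosen after the data were seen.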
